A study of Capsicum annuum with 12 samples.

Results

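Long regions of H3K27me3 that lie outside the large clusters of this mark were examined in young pepper leaves (Capsicum annuum, cultivar 59). H3K27me3 is trimethylation of lysine 27 of histone H3. Polycomb repressive complexes place it, and in plants it is known from genes kept silent in a given tissue, such as developmental regulators, often over much of the gene body. H3K4me3, set at the start of transcribed genes, and H3K9me2, known in plants from silent transposons, were measured in the same series. A region that carries both H3K4me3 and H3K27me3 in bulk tissue can hold both on the same nucleosomes or in different cells, which these data cannot tell apart.

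Peaks of each H3K27me3 list were merged, and bases covered in both replicates formed shared regions. Of 29068 shared regions of at least 100 bp on the 12 chromosomes, 929 were 2000 bp or longer. Of these, 305 lay in a stretch of 10 kb or longer that formed when peaks at most 3 kb apart were joined in either replicate. The other 624 are the long regions described here, chosen by their H3K27me3 peak widths and the spacing of the peaks. They were 2.15% of the shared regions and held 1.70 of 18.5 Mb of shared H3K27me3 bases (9.19%). The 24266 short regions of at least 100 and under 1000 bp, 10.7 Mb in all, served for comparison. Of these, 17.2% lay in such stretches, and 4999 (20.6%) were cut from a peak of 1000 bp or more in at least 1 replicate.

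The labels list 2 chromatin immunoprecipitation libraries of each of H3K27me3 (antibody 07-499), H3K4me3 (ab8580) and H3K9me2 (ab1220), and 6 input samples without antibody. All came from 2 g of ground young leaf, cross-linked with 1% formaldehyde for 10 min, and the labels name no treatment and no other genotype. Nothing in the labels says whether the replicates were separate plants. Leaf tissue mixes cell types, so a higher enrichment and a larger share of cells with the mark cannot be told apart. The H3K27me3 lists held 37284 and 33098 peaks on the chromosomes in replicates 1 and 2, with a median of 21 and 20 fragments over the summit.

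The name "single" holds for these regions only in the sense that they lay outside long stretches. Another H3K27me3 peak lay within 1 kb of the edge of 444 of the 624 (71.2%), and within 3 kb of 516 (82.7%). For short regions the shares were 69.6% and 85.5%. The median gap to the nearest other peak of either replicate was 465 bp for long and 546 bp for short regions. That neighbour was mostly small: the nearest other shared region was under 1000 bp for 83% of long regions, with a median width of 470 bp. Truly isolated regions were few, since 40 long regions (6.41%) and 1083 short ones (4.46%) had no other H3K27me3 peak within 50 kb. Spacing was part of how the regions were chosen, so these values are a description.

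Most long regions were only a little above the length limit. Their median length was 2427 bp, the middle 50% ran from 2185 to 2961 bp, and the longest had 7659 bp. Of the 624, 340 were under 2500 bp and 41 were 4000 bp or longer. Each lay within 1 merged peak of each replicate, which holds for every shared region by the way they are formed. Some were pieces of the same peak in a replicate, such as chr2:9444305-9447737 and chr2:9447990-9451138 in replicate 1. The replicates placed the edges alike, with a median offset of 46 bp at the start and 51 bp at the end. In short regions it was 51 bp at both. The shared part was 95.6% of the wider of the 2 peaks by median, against 74.6% in short regions. Long regions were chosen by the length that both replicates shared, so a high shared part is built in and this contrast is a description. The peak was wider in replicate 1 for 396 regions and in replicate 2 for 228. Outside the stretches, 1040 peaks of replicate 1 and 808 of replicate 2 reached 2000 bp. Of these, 619 (59.5%) and 624 (77.2%) met a long region, and the remaining 421 and 184 overlapped the other replicate over less than 2000 bp.

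Long regions were the more strongly enriched ones. The highest peak of a long region had a median fold enrichment of 24.9 and 22.7 in replicates 1 and 2, against 9.31 and 8.66 in short regions. Fold is the authors' linear ratio over the local background. Fragments over the summit had a median of 72 and 64.5 in long regions and of 24 and 21 in short ones. Even the weakest long regions rested on 21 and 18 fragments, while the least in short regions was 7 in both libraries. The ranges overlapped widely, with folds of long regions from 5.99 to 192 in replicate 1 and from 6.12 to 112 in replicate 2. The higher of the 2 replicates was 1.30 times the lower at the median region, and more than 2 times the lower in 49 long regions (7.85%). Replicate 1 was the higher in 360 of the 624. Regions of 1000 to under 2000 bp outside stretches, called mid-length here, lay between, at a median fold of 17.9 and 16.4, and the 305 long regions inside stretches were higher, at 28.4 and 27. Fold also grew with length among the long regions, to a median of 35.6 and 31.3 at 4000 bp or longer, against 22.3 and 20.7 under 2500 bp. Width and fold come from the same peaks that chose the regions, so no test was made.

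**Figure D1:**
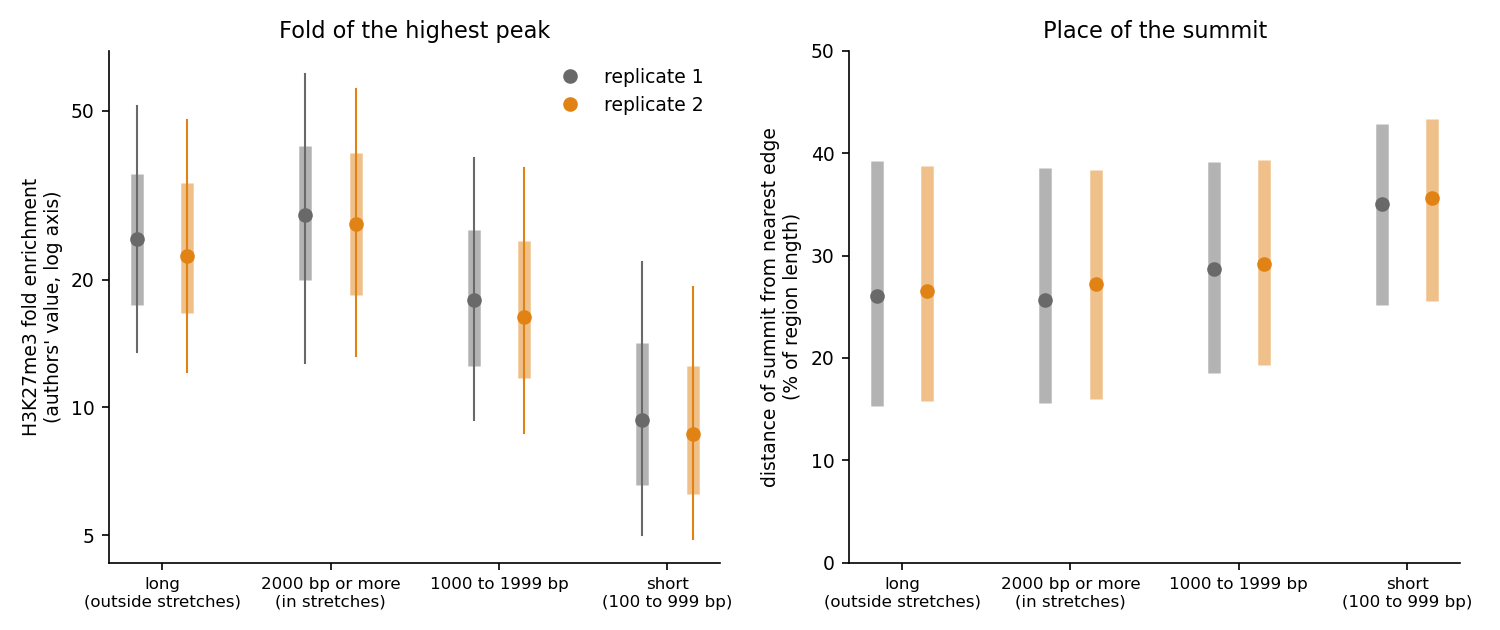
Left, H3K27me3 fold enrichment of the highest peak (authors' value, log axis) in 4 classes of shared regions. Right, distance of that peak's summit from the nearest edge as a percentage of region length. Points are medians, thick bars the middle 50%, thin lines (left only) the 10th to 90th percentile, and colours the 2 replicates. Long regions had a median fold of 24.9 and 22.7, short ones 9.31 and 8.66. Relative to region length, summits of long regions lay nearer to an edge than those of short ones.

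Relative to region length, the summit of a long region lay nearer to an edge than that of a short one. It lay a median 26.1% and 26.5% of the region's length from the nearest edge in replicates 1 and 2, against 35% and 35.6% in short regions. In base pairs this was 662 and 661 bp for long and 126 and 127 bp for short regions. The outer 25% at either end held 47.0% and 46.5% of the summits of long regions, against 24.7% and 23.8% in short ones. In mid-length regions it held 41.1% and 40.1%, and in the 305 long regions inside stretches 49.7% and 46.7%. Summits spread evenly along a region would give 50%. These shares are over summits that fell inside the shared region, which for long regions were 610 and 620 of the 624. Counted from the lower coordinate, the median place in long regions was 0.513 and 0.510 of the length. The replicates found the same spot in most cases. Their summits were a median 41 bp apart in long as in short regions, and within 200 bp of each other in 456 long regions (73.1%) and in 80.2% of short ones. In 66 long regions (10.6%) they were over 1000 bp apart, against 3.72% of short ones.

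The 10 longest regions had between 5479 and 7659 bp, and 6 of them held H3K4me3. Positions are in the authors' build. The longest, at chr4:55088723-55096381, reached a fold of 72.2 and 80.9 in replicates 1 and 2 on 184 and 167 fragments. Its summits lay 1995 and 2036 bp from the start, and the next H3K27me3 peak was 215894 bp away. Shared H3K4me3 covered 1516 bp of it (19.8%), with an H3K4me3 fold of 20.1 and 28.3. At chr7:85787700-85795188, a region of 7489 bp had a fold of 39.7 and 58.1, with the next H3K27me3 peak 447641 bp away. It held 246 bp of weak H3K4me3 at a fold of 4.24 and 4.31. The third, at chr12:44594581-44602028, had 35.6 and 23.4, no H3K4me3, and its summits near the far end, 6643 and 6680 bp from the start.

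The other 7 of the 10 longest all had a further H3K27me3 peak within 1 kb. At chr12:213823640-213830434, the replicates had 52.4 and 50.03. At chr3:66823684-66830265, the fold was 64.3 and 112, the largest difference between replicates among the 10. A region at chr7:66591762-66598255 had 29.3 and 15.2, and was the exception among the 10 in summit place, with summits 4607 and 2797 bp from the start. The region at chr2:173725712-173732019 had 94.9 and 70.5, and that at chr2:94824055-94829828 had 51.1 and 51.2. The last ones lay at chr9:209233749-209239756, with 19.5 and 38.5, and at chr3:42152231-42157709, with 53.3 and 33.9. Of the 10, only the first named on chromosome 2 and the last named on chromosome 3 lay in the outer 15% at either end of their chromosome.

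**Figure D2:**
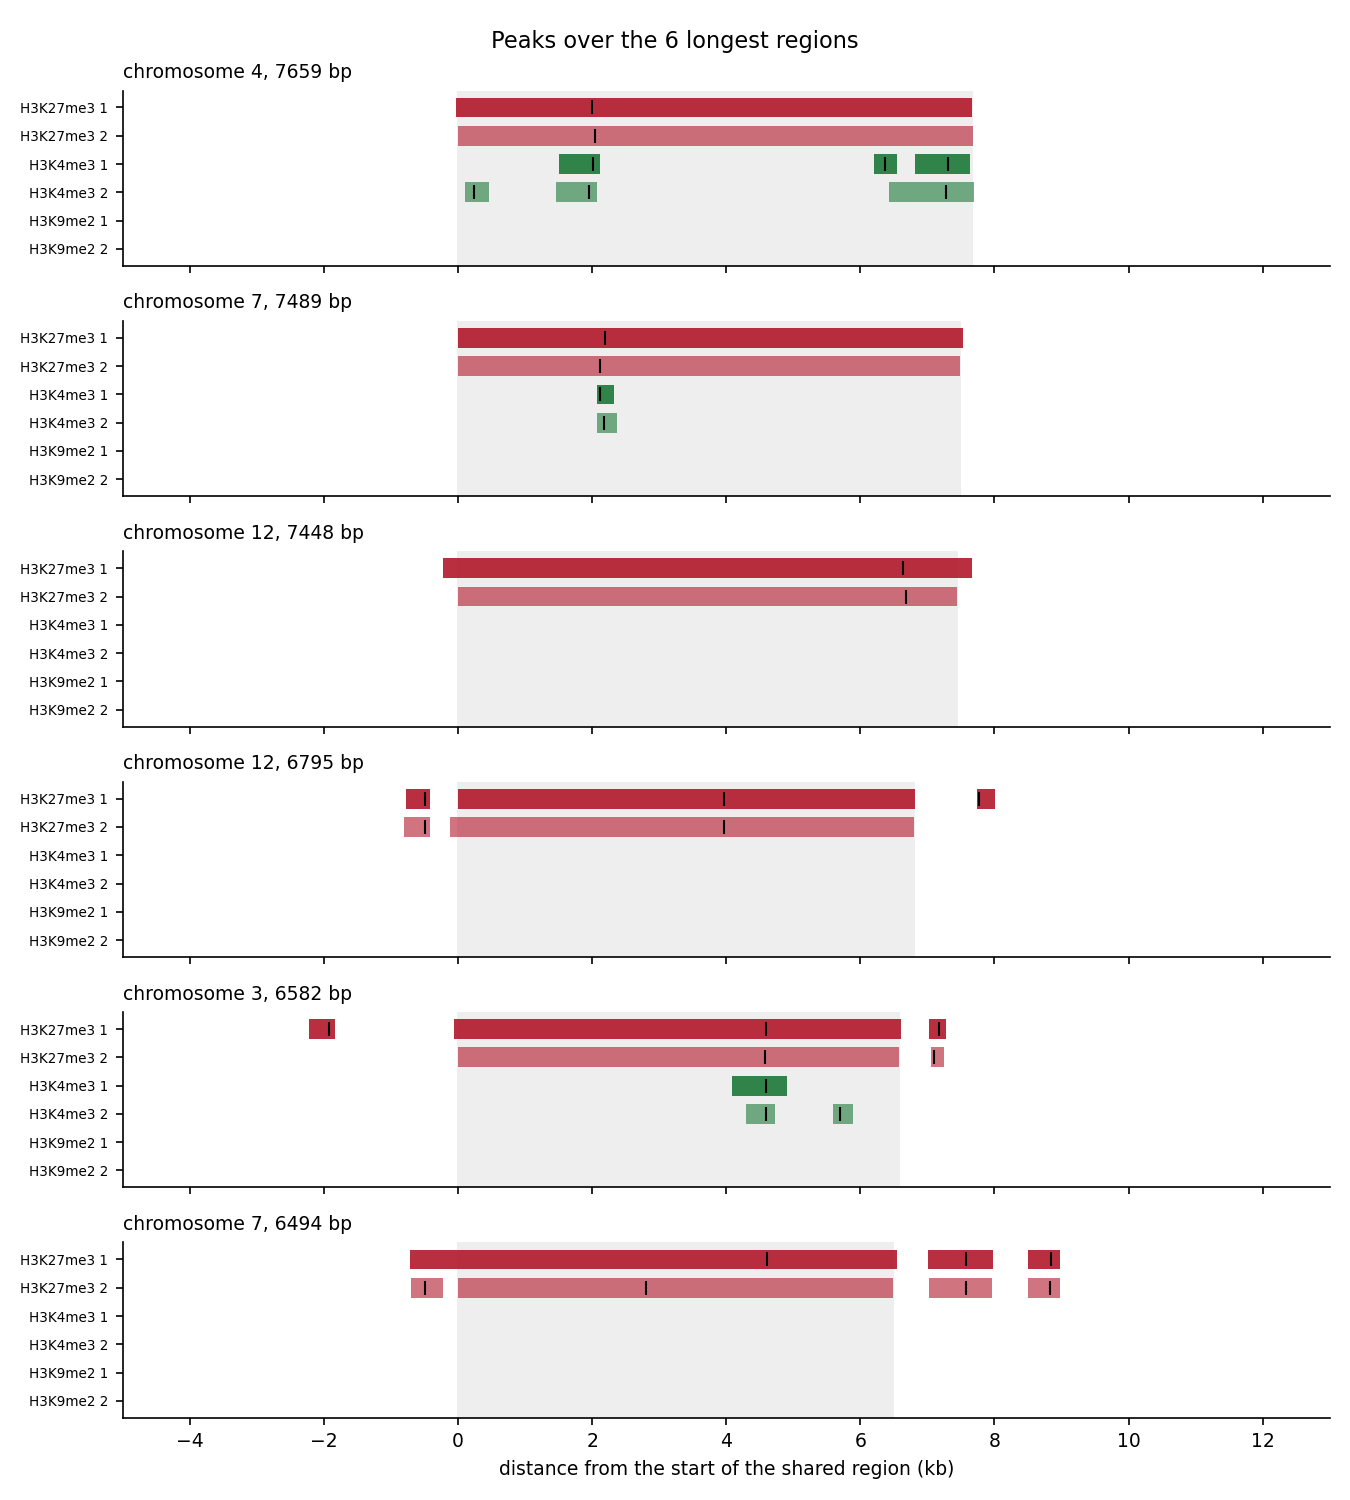
Peaks of the 6 libraries over the 6 longest regions, with distance from the region start in kb. Bars are peaks, black ticks their summits, rows the mark and replicate, and grey the shared H3K27me3 region. H3K4me3 peaks lay inside 3 of the 6 regions and no H3K9me2 peak lay in any window.

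The 5 long regions of highest mean fold were shorter, 2044 to 4971 bp, and replicate 1 was the higher in 4 of them. They lay at chr7:263519488-263521531 (144 ± 67.3, mean ± SD, n = 2), chr3:259932845-259937815 (143 ± 45.0), chr3:258131420-258134161 (103 ± 42.4), chr6:6131576-6134591 (91.5 ± 52.1) and chr2:146215745-146218458 (91.3 ± 5.70). The first 3 held H3K4me3 at folds of 3.24 to 7.41, and 4 of the 5 lay in the outer 15% of their chromosome. Farthest from any other H3K27me3 peak was a region of 4109 bp at chr10:77586199-77590307, with 745728 bp to the next one and a fold of 40.3 ± 0.340. The next was a region of 2319 bp at chr5:136912265-136914583, with 609673 bp to the next peak and a fold of 17.4 ± 0.605. The 3 regions just inside the length limit, of 2001 to 2004 bp, had mean folds of 28.2 to 38.9. The 3 just outside it, each 1 bp too short, had 9.62 to 22.1.

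H3K4me3 was found inside 142 of the 624 long regions (22.8%, 95% Wilson interval 19.6 to 26.2%) and inside 8.98% of short ones (8.62 to 9.34%). Over all shared H3K27me3 regions the share was 10.4%. It was 19.4% in mid-length regions (572 of 2946) and 13.4% in the long regions inside stretches (41 of 305). The H3K4me3 libraries gave 173 and 176 long regions when taken alone. A longer region has more room to hold a peak, so the share of bases was compared as well. Shared H3K4me3 covered 6.67% of the bases of long regions and 8.07% of those of short regions. The mean difference over the 12 chromosomes was −2.16 points (SD 4.04, lower on 9 of 12), not past the threshold of 0.05 (adjusted exact p = 0.126). In 8 comparisons of this kind, the difference on each chromosome entered an exact two-sided permutation test by sign flips. Differences were long minus short, except for H3K27me3 fold, compared within long regions as with minus without H3K4me3. The p-values were adjusted over the 8 by the Benjamini-Hochberg method. Chromosomes are parts of 1 genome, so these p-values say nothing of the spread between plants. The difference in the share of bases over chromosomes was negative in all 17 alternatives, but its size varied. It passed the test in 6, among them short regions outside stretches only (−3.10 points, adjusted exact p = 0.0313). With long regions taken from 1500 bp it was −0.427 points (adjusted exact p = 0.716), and the pooled shares then ran the other way, at 8.44% of long and 8.07% of short bases. Without replicate 2 it was −1.01 points (adjusted exact p = 0.366).

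At the midpoint of the region, in a window of 1000 bp, H3K4me3 was present in 13.6% of long and 9.45% of short regions. The window lies inside a long region but reaches beyond the edges of every short one. The mean difference was 3.18 points (SD 7.06, higher on 7 of 12 chromosomes), again not past the threshold (adjusted exact p = 0.192). Chromosomes 1, 2 and 12 gave the largest differences. Chromosomes 1 and 2 hold groups of neighbouring long regions with H3K4me3, given below. In mid-length regions the share was 19.2%, and long minus mid-length regions gave −6.09 points over chromosomes (adjusted exact p = 0.00911, a comparison added after seeing the data). With replicate 2 or replicate 1 alone, long exceeded short regions by 5.91 and 6.32 points and the call was made (adjusted exact p = 0.00469 and 0.0156).

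Where a long region held H3K4me3, the H3K4me3 mostly lay wholly within it. This was so in 120 of the 142, while in the other 22 an H3K4me3 interval reached across an edge. The median covered length was 612 bp, or 20.9% of the region. In short regions with H3K4me3 it was 354 bp, or 94.6%. Of the long regions, 28 (4.49%) were covered over 50% or more. The share was 7.73% of short, 9.54% of mid-length and 7.65% of all shared regions. Some of the 28 were close neighbours, counted throughout as separate regions. All long regions from chr1:251229744 to chr1:251424809 were among them, with 57.3% to 68.9% of each covered. So were those at chr2:171456082-171458199, chr2:171472556-171474638 and chr2:171489051-171491084, with 97.1%, 93.4% and 98.4% covered. Inside the long regions with H3K4me3, its bases were spread widely, with 18.1%, 25%, 20.6%, 19.2% and 17.1% in 5 equal steps from either edge to the centre. The summits of the 2 marks tended to coincide. In the 141 long regions with an H3K4me3 region of at least 100 bp, the H3K27me3 summit and the nearest H3K4me3 summit were a median 100 bp apart in replicate 1 and 105 bp in replicate 2. They were within 200 bp in 83 and 89 regions, and over 1000 bp apart in 31 and 24.

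The 3 long regions with the most H3K4me3 were nearly covered by it. At chr1:29635844-29638527, H3K4me3 covered 96.9% of 2684 bp. Its H3K4me3 fold was 86.5 and 64.8, and its H3K27me3 fold 41.7 and 24.8. At chr8:97963237-97966112 it covered 89.0% of 2876 bp. The H3K4me3 fold there was 24.3 and 6.91, next to an H3K27me3 fold of 28.4 and 36.5. At chr10:244311761-244314244 it covered all 2484 bp. H3K4me3 reached 32.9 and 34.7 there, and H3K27me3 only 9.56 and 21.5.

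Long regions met weaker H3K4me3 than short regions did. The 162 H3K4me3 regions that overlapped a long region had a median fold of 8.17 (mean of both replicates), and the 2081 that overlapped a short region had 12.9. H3K4me3 regions that met no shared H3K27me3 region had 33.3. Their summits rested on a median 26.5 and 29 fragments at long regions and on 41 and 42 at short regions, and their median widths were 527 and 546 bp. By chromosome the median was 8.27 ± 2.04 at long and 13.2 ± 1.48 at short regions (SD, 11 chromosomes with at least 5 of each). The difference of −4.95 (SD 2.48) had the same sign on all 11 (adjusted exact p = 0.00391). Counting only H3K4me3 regions of which at least 50% was covered by shared H3K27me3, the medians were 8.07 and 10.3 and the difference −2.39 (adjusted exact p = 0.0234). The sign held in all 17 alternatives, and the call was lost in 5. Against mid-length regions, for example, it was −1.65 (adjusted exact p = 0.176). With peaks limited to a −log10 q of 10 or more, it was −2.34 on 7 chromosomes (adjusted exact p = 0.464).

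Among the long regions, those with H3K4me3 had the higher H3K27me3 fold. The median was 31.9 and 30.2 in replicates 1 and 2 for the 142 with H3K4me3, against 23.6 and 21.7 for the 482 without. Fragments over the summit were 98.5 and 88.5 against 67 and 60. The ranges overlapped widely, from 7.27 to 112 with H3K4me3 and from 6.12 to 95.3 without, in replicate 2. In replicate 1 they were 6.57 to 192 and 5.99 to 133. The 133 is of a peak that also spans a long region with H3K4me3, where its summit lay. By chromosome, the median was 33.6 ± 11.9 with and 23.2 ± 1.91 without H3K4me3, a difference of 10.3 (SD 11.9, higher on 11 of 12, chromosome 10 lower, adjusted exact p = 0.00781). With H3K4me3, chromosomes 6, 7, 8 and 9 had 5 regions each and chromosome 10 had 6. Medians differed most on chromosomes 3 (60.5 against 25.1) and 7 (48.9 against 22.2), and least on chromosome 12 (26.7 against 25.5). Chromosome 3 counted neighbours at chr3:14810307, chr3:14824468 and chr3:14838640 as separate regions, with H3K4me3 and mean folds of 81.4, 73.0 and 80.3. The size of the difference depended on the library: it was 6.32 without replicate 1 and 3.71 without replicate 2, both past the test (adjusted exact p = 0.00260 and 0.0391). With peaks limited to a −log10 q of 5 or more it was 8.64 on 10 chromosomes, and to 10 or more 13.4 on 7. Neither was called (adjusted exact p = 0.0944 and 0.0625). The local background moved the same way, with 2.40 and 2.23 fragments at regions with H3K4me3 and 1.72 and 1.65 at those without. Length differed little, at 2502.5 and 2413.5 bp. The part of background and length in the difference was not tested.

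The share with H3K4me3 was not even over the range of enrichment. It was 36.5% in the 25% of long regions with the highest mean fold (34.3 to 144) and 22.4%, 13.5% and 18.6% in the next 3 groups of 156 regions, going down. Most of the H3K4me3 in the top group was weak, with a fold under 10 in 37 regions and of 10 or more in 19. Over all long regions, the 80 with weak H3K4me3 had a median H3K27me3 fold of 34.1 and 32.5, and the 61 with an H3K4me3 fold of 10 or more had 26.3 and 24.8. In the weak set the summits of the strongest H3K4me3 region and of H3K27me3 were a median 102 and 108 bp apart. In the other set they were 492 and 147 bp apart. The limit of 10 was chosen after seeing the data, and these values are a description.

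**Figure D3:**
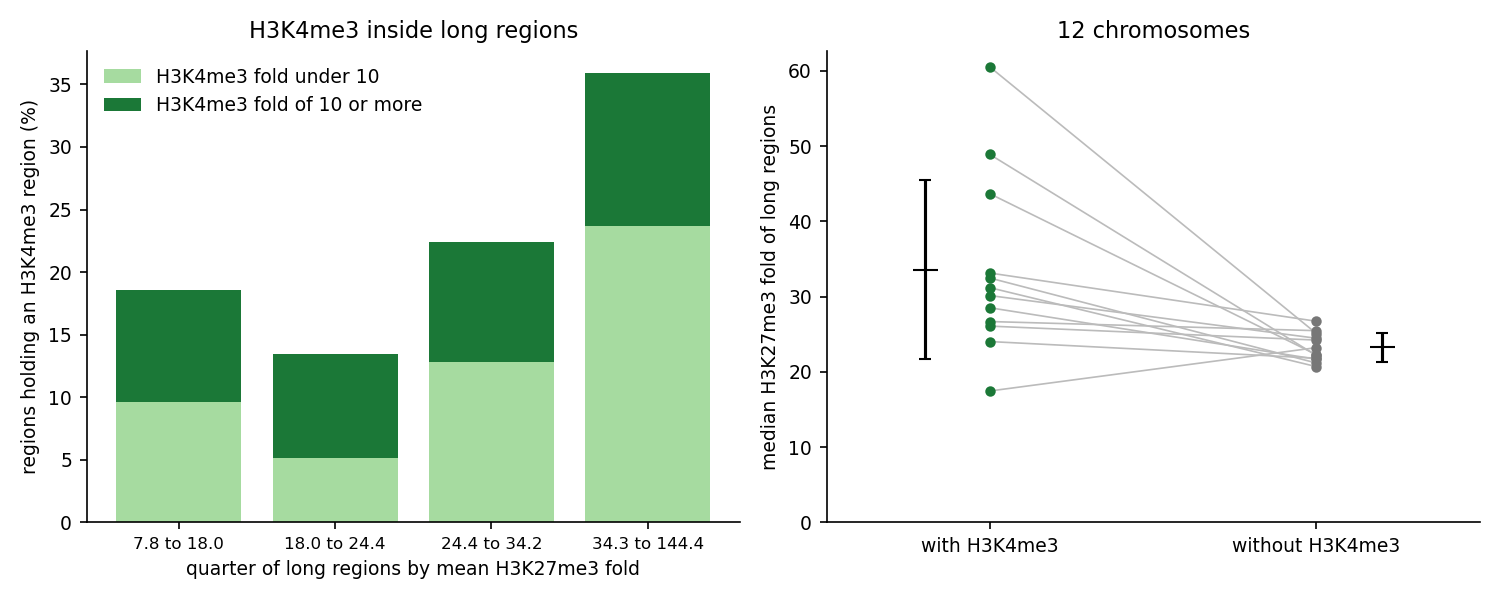
Left, percentage of long regions that hold an H3K4me3 region of at least 100 bp, in 4 groups of 156 by mean H3K27me3 fold, split by H3K4me3 fold. Right, median H3K27me3 fold of long regions with and without H3K4me3, with 1 pair of points per chromosome and mean ± SD in black. The highest group held H3K4me3 most often, and 11 of 12 chromosomes had the higher median with H3K4me3.

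Just outside the edges, H3K4me3 was found at a smaller share of long than of short regions. H3K4me3 lay in the 2000 bp beyond an edge of 64 long regions (10.3%, interval 8.11 to 12.9%) and of 15.3% of short regions, against 15% of all shared regions. By chromosome the shares were 10.1 ± 5.84% and 15.4 ± 2.89%. The difference of −5.29 points (SD 4.38) had the same sign on 11 of 12 chromosomes, with chromosome 2 the exception (adjusted exact p = 0.00488). H3K4me3 on both sides was seen at 3 long regions (0.481%) and at 4.25% of short ones. Coverage by H3K4me3 was 5.54% in the last 250 bp inside a long region and 0.782% in the first 250 bp outside, where short regions had 2.94%. Between 1000 and 1250 bp outside it was 1.48%, against 1.96% for short regions. Among regions with no shared H3K4me3 base inside, the share was 6.43% for long and 9.45% for short regions, and the difference was −2.85 points (adjusted exact p = 0.0381). With long regions taken from 1500 bp it was −3.32 points (adjusted exact p = 0.00391). The difference kept its sign in all 20 alternatives and lost the call in 1, the regions outside the outer 15% of the chromosomes (−6.30 points, adjusted exact p = 0.0615).

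**Figure D4:**
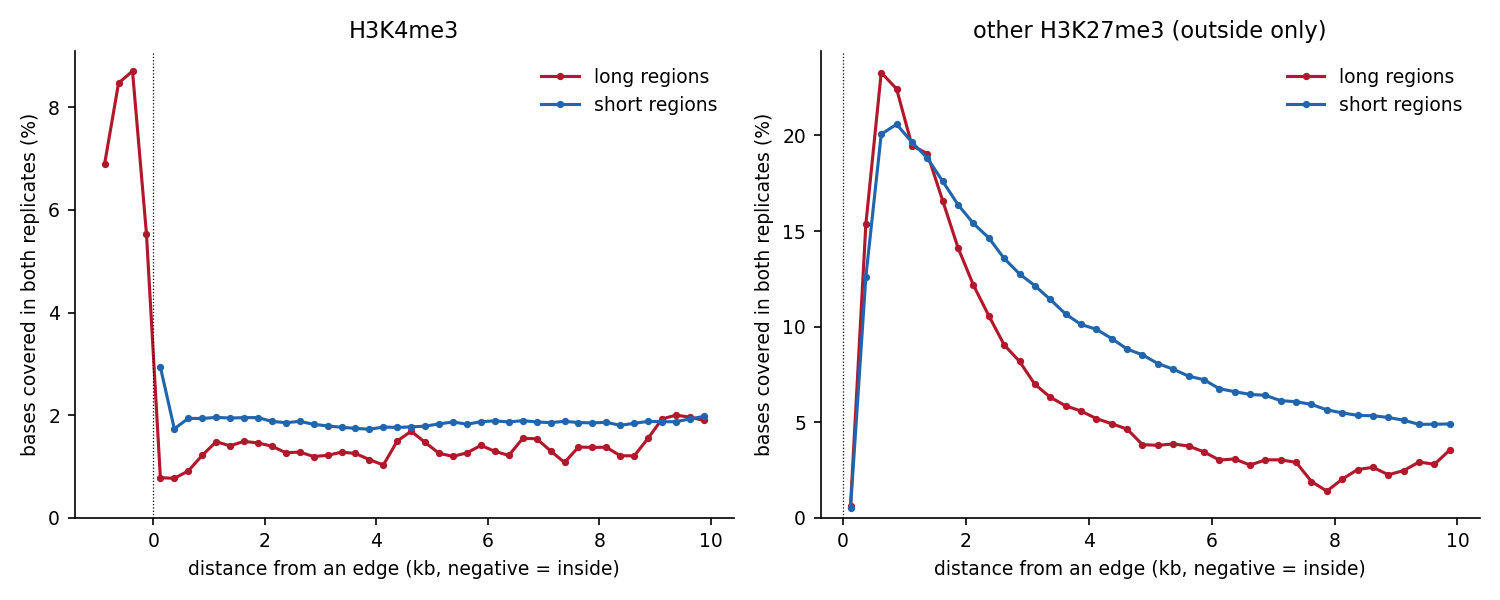
Percentage of bases covered in both replicates by H3K4me3 (left) and by other H3K27me3 regions (right), in steps of 250 bp from an edge, both edges together. Red shows long and blue short regions, and negative distances lie inside a long region. H3K4me3 covered 5.54% just inside and 0.782% just outside the edge of long regions, and other H3K27me3 peaked at 23.3% for long and 20.6% for short regions within 1 kb.

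Long regions lay in surroundings with fewer H3K4me3 regions. Within 50 kb of the midpoint there were 1.99 ± 0.760 shared H3K4me3 regions around long and 2.37 ± 0.761 around short regions (mean ± SD over 12 chromosomes). The difference of −0.371 (SD 0.220) had the same sign on 11 of 12 chromosomes (adjusted exact p = 0.00391). None lay within 50 kb of 196 long regions (31.4%) and of 27.9% of short ones. The difference was not seen in every zone of the chromosome, and a change between zones was not tested. Among regions outside the outer 15% of the span at either end it was 0.00289 (adjusted exact p = 1), and among those in the outer 15% it was −0.365 (adjusted exact p = 0.0456). It also was no longer called within 20 kb (−0.0851, adjusted exact p = 0.0844) or without replicate 2 (−0.219, adjusted exact p = 0.0753).

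Long regions were less often distal, meaning near a chromosome end, than short ones. The outer 15% of the span at either end held 350 of the 624 (56.1%, interval 52.2 to 59.9%), against 66.9% of short regions and 66.8% of all shared regions. By chromosome the share was 57.0 ± 11.3% for long and 67.0 ± 9.27% for short regions. The difference of −10.1 points (SD 6.29) had the same sign on 11 of 12 chromosomes, with chromosome 6 the exception (adjusted exact p = 0.00391). The rule sets part of this difference, since it removes the long regions in stretches, which were 79.3% distal, and keeps the short ones in stretches. How large that part is was not tested. The result concerns the 624 regions outside stretches, not all 929 regions of 2000 bp or longer. Against the short regions outside stretches, 63.5% of which were distal, the difference was −6.87 points (adjusted exact p = 0.00859). With peaks joined only within 1 kb it was −4.64 points (adjusted exact p = 0.0156), and against mid-length regions −6.47 (adjusted exact p = 0.0125). It passed the test in all 17 alternatives. The outer 5% held 25.2% of long and 32.5% of short regions, and the innermost part, 30 to 50% of the span from an end, held 15.4% and 10.7%. Mid-length regions were distal in 62.7%. Fold of long regions was much the same in all 4 zones, with medians of 23.7 to 25.5 in replicate 1 and of 21.7 to 23.2 in replicate 2. The share with H3K4me3 ran from 21.0 to 24.9%.

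**Figure D5:**
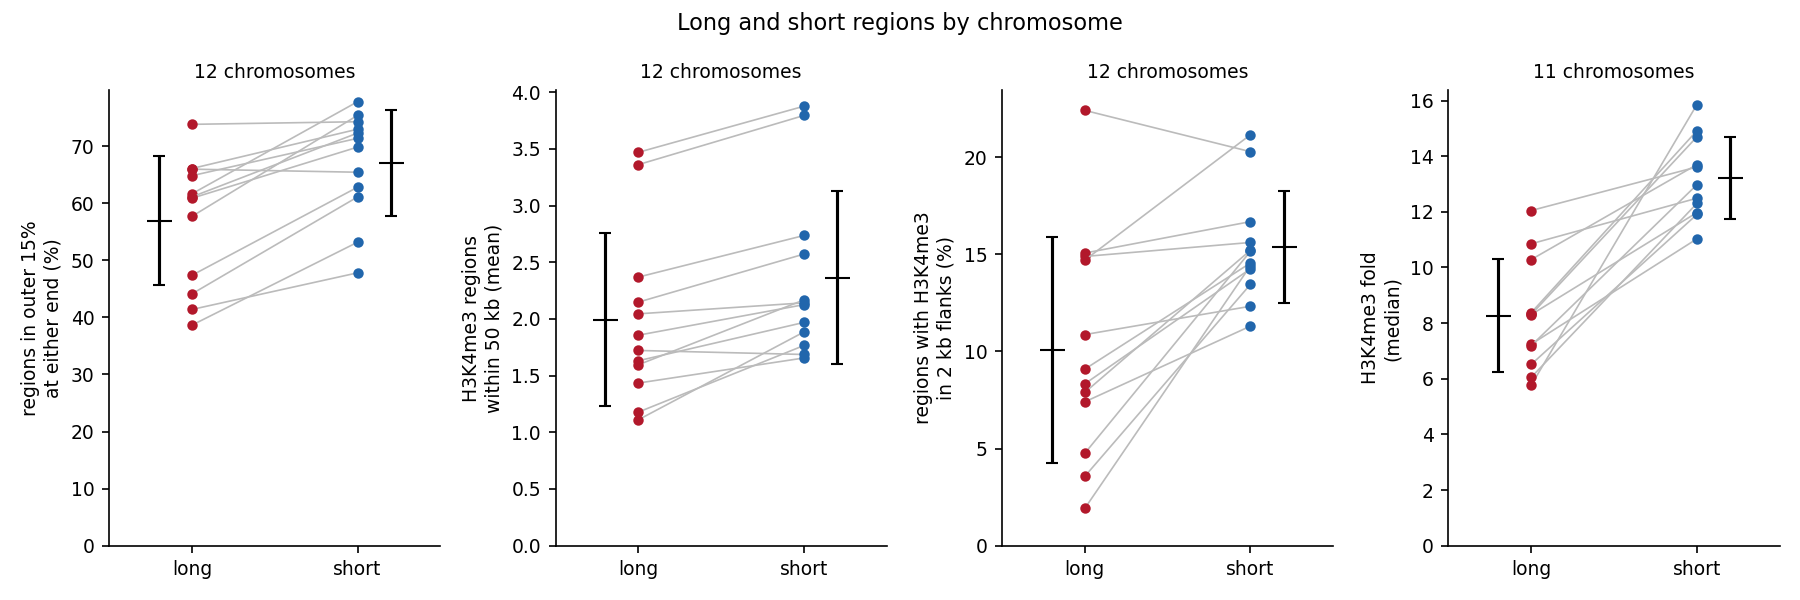
Values of long (red) and short (blue) regions on each chromosome, joined by lines, with mean ± SD in black. The panels show the share in the outer 15% at either end, H3K4me3 regions within 50 kb, the share with H3K4me3 in the 2 kb flanks and the median fold of overlapping H3K4me3 regions. Long regions were lower on 11 of 12, 11 of 12, 11 of 12 and 11 of 11 chromosomes.

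Every chromosome held long regions, from 34 on chromosome 8 to 88 on chromosome 1. Per 100 Mb of span they were densest on chromosomes 2 (32.5) and 1 (26.4) and sparsest on chromosomes 9 (12.8) and 10 (15.3). Short regions numbered 1171, 948, 578 and 600.5 per 100 Mb on the same 4 chromosomes. Per 1000 short regions there were between 21.7 long ones on chromosome 3 and 33.8 on chromosome 11. The share of long regions with H3K4me3 ran from 10.6% (5 of 47) on chromosome 6 to 37.9% (22 of 58) on chromosome 2. The 22 include the neighbouring chromosome 2 regions given above. These densities are a description with no test.

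Around long regions, coverage by other H3K27me3 was highest within 1 kb and then fell. It covered 23.3% of the bases between 500 and 750 bp from an edge, against 20.1% for short regions, and 3.83% between 4750 and 5000 bp, against 8.52%. The rule keeps long regions out of stretches but not short ones, so it bears on this contrast. Coverage around the short regions outside stretches alone was not computed. Within 50 kb there were on average 4.99 other shared H3K27me3 regions around long and 6.62 around short regions. Around the 20094 short regions outside stretches there were 5.05, much as around long ones.

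No H3K9me2 was detected in the long regions. No H3K9me2 peak of either replicate touched any of the 624, which allows a share of up to 0.481%. In short regions it was 53 of 24266 (0.218%), so a difference was not detectable. In the 5000 bp beyond the edges, H3K9me2 of either replicate lay at 9 long regions (1.44%) and at 1.79% of short ones. The mean difference of −0.327 points over chromosomes was not called (adjusted exact p = 0.531), and its sign turned in 4 of 19 alternatives. With lists of replicate 1 or of replicate 2 alone it was −1.71 and −1.01 points and passed (adjusted exact p = 0.00879 and 0.00469).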

How the data were processed

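Chromatin immunoprecipitation sequencing measured 3 histone marks in 2 libraries each, read as 150 bp pairs per the labels' protocols. Each library has a deposited peak list, whose name mentions an input without saying how it was used. The submitters' processing notes name MACS2 2.2.7.1, BWA 0.7.17, deepTools 3.3.0 and Trimmomatic 0.38, with no settings. In the deposited lists each peak has a position, a summit, a fold (a linear ratio over local background, by the authors) and 2 columns on a −log10 scale, of its p-value and its q-value. The lowest −log10 q on the chromosomes was 2.01 to 2.05. The sources used here do not give the genome build, and the gene table at hand is of another assembly, so no gene or sequence was assigned.

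Groups and replicate numbers come from the titles. Positions count from 1, on sequences with the prefix Ca_59Chr. Each chromosome was taken to end at its last peak in any of the 6 lists. Fragments over a summit and the local background were recovered from fold and p, with fragments whole to within 0.01 at 100% of peaks. Read totals were not used here. Wilson intervals at 95% and limits from a count of 0 (3 counts) cover counting error only, since neighbouring peaks and fragments are not independent.

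The 8 tests compared chromosomes with at least 5 regions of each class, on at least 6 chromosomes, at a threshold of 0.05. The smallest p of 12 sign flips is 0.000488 and of 11 it is 0.000977. Named are the 10 longest long regions, the 5 of highest mean fold, the 3 with most H3K4me3, the 3 farthest from other H3K27me3, the 3 just inside and the 3 just outside the length limit, and the 2 densest and sparsest chromosomes. The regions, tests and lists were chosen with earlier results of these data known. Python 3.11.15, numpy 2.4.6, pandas 2.3.3, scipy 1.17.1 and matplotlib 3.10.9 were used, and the computations were tested on simulated lists.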

Additional observations from a re-analysis of the deposited data

Results flagged for a closer look

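Sequences outside the 12 chromosomes, which no comparison used, held 893 and 218 H3K27me3 peaks in replicates 1 and 2. They formed 150 shared H3K27me3 intervals of at least 100 bp, and 1 of them met the rule for long regions. No control value was analysed for these sequences.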

How the results depend on the processing

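Differences are long minus short, or with minus without H3K4me3 for the H3K27me3 fold, with adjusted exact p in brackets. The distal share kept its sign and its call in all 17 alternatives, from −12.7 to −4.64 points. H3K4me3 in flanks kept its sign in all 20, from −7.84 to −2.85 points. The H3K4me3 base share ran from −4.17 to −0.427 points. The number of long regions was 543 to 814 in 5 alternatives, 1422 from 1500 bp, 148 from 3000 bp, and 860 and 1073 without replicate 1 and without replicate 2. Without a replicate, the regions are peaks of 1 library alone.

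Among calls that were lost, the H3K27me3 fold with H3K4me3 minus without was 8.64 (0.0944) with peaks of −log10 q from 5 and 13.4 (0.0625) from 10. These rested on 10 and 7 chromosomes. The H3K4me3 fold was −2.34 (0.464) with −log10 q from 10, −2.36 (0.292) from 3000 bp, −3.87 (0.0625) in the outer 15% only, −5.28 (0.0729) outside it and −1.65 (0.176) against mid-length regions. In this order, these rested on 7, 6, 7, 7 and 12 chromosomes. H3K4me3 in flanks was −6.30 (0.0615) outside the outer 15%. H3K4me3 regions nearby were −0.0851 (0.0844) within 20 kb, 0.00289 (1) outside the outer 15% and −0.219 (0.0753) without replicate 2, while the call was kept without replicate 1 (−0.296, 0.00781).

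Among calls that were gained, the H3K4me3 base share was −2.66 (0.0367) with −log10 q from 10, −3.34 (0.0376) from 3000 bp, −2.73 (0.0133) with peaks joined within 1 kb, −3.10 (0.0313) against short regions outside stretches, −3.02 (0.0397) against short regions of 500 bp or more and −4.17 (0.00195) against mid-length regions. H3K4me3 at the midpoint was 7.43 (0.00391) from 1500 bp, 7.24 (0.00391) with H3K4me3 of either replicate, and 5.91 and 6.32 without replicate 1 and without replicate 2. It turned to −2.10 (0.304) from 3000 bp and −6.09 (0.00911) against mid-length regions. H3K9me2 nearby was −0.165 (0.0156) with −log10 q from 10, and −1.01 and −1.71 without replicate 1 and without replicate 2. It turned to 1.88 (0.245) from 3000 bp, 1.77 (0.127) in flanks of 10000 bp, 0.320 (1) outside the outer 15% and 0.365 (0.616) against mid-length regions. The cause of these changes was not tested.

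With the replicate number as a block, H3K4me3 at the midpoint was 6.12 (0.00130) and H3K9me2 nearby −1.36 (0.00391), both then past the test, and no other call changed. The H3K27me3 fold with minus without H3K4me3 was 5.01 with the block, 6.04 with H3K4me3 of either replicate, and 6.32 and 3.71 without replicate 1 and without replicate 2, all still called. The labels do not say that a number marks a shared batch. The H3K27me3 fold with and without H3K4me3 could not be compared by chromosome from 3000 bp, within 2000 to under 2500 bp or outside the outer 15%, as too few chromosomes had 5 regions of each kind. Limits on local background, on position, on H3K4me3 inside, on H3K4me3 covered over 50% and the mid-length class were chosen after seeing the data. With 2 libraries a mark, no spread between plants could be estimated.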

Other observations

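Long regions were sometimes close to one another. Another long region had its midpoint within 10 kb for 46 of the 624 (7.37%), within 50 kb for 93 (14.9%) and within 100 kb for 132 (21.2%). The nearest other shared H3K27me3 region was 2000 bp or longer for 32 long regions (5.13%) and for 3.14% of short regions, or 2.62% of the short regions outside stretches. Long regions with H3K4me3 inside had 3.41 shared H3K4me3 regions within 50 kb on average, the ones inside included, and those without had 1.60. The long regions without H3K4me3 inside lay a median 31932 bp from the nearest H3K4me3 region, and the short regions with no H3K4me3 region inside lay 21629.5 bp away. These values are descriptions with no test.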
